A study of Arabidopsis thaliana with 8 samples.

Results

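The genes described here are 10 Arabidopsis thaliana genes for calcium and potassium signalling in the pollen tube, chosen by their locus identifiers from the 28775 genes of the count tables. They are CNGC18 (AT5G14870), CNGC7 (AT1G15990), CNGC8 (AT1G19780), GLR1.2 (AT5G48400), ACA9 (AT3G21180), CPK17 (AT5G12180), CPK34 (AT5G19360), CPK24 (AT2G31500), SPIK (AT2G25600) and TPK4 (AT1G02510). All 10 were found in the tables, and all 10 passed the filter on low counts. Inflorescence mRNA was compared between janus-2 and Col-0 plants grown under long days without treatment, with 2 biological replicates of each genotype. The janus-2 plants carry a hypomorphic CRISPR/Cas9 deletion allele of JANUS, a splicing factor gene, come from 1 edited line that was backcrossed to Col-0, and are sterile. Col-0 is the wild-type accession. Whole inflorescences hold flowers of many stages, and pollen is only a part of them.

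A pollen tube grows at its tip and carries the sperm cells to the ovule. Calcium enters at the tip through channels of the cyclic nucleotide-gated (CNGC) and glutamate receptor-like (GLR) families, and pumps of the ACA family export it again. Calcium-dependent protein kinases (CPKs) read the calcium signal and act on ion channels, and potassium taken up through channels of the Shaker and tandem-pore (TPK) families helps to set the turgor of the tube. Most members of these families also serve roots, leaves and guard cells, and the 10 genes named here are known from pollen. Some further members, among them CNGC16, ACA7 and CPK20, are known from pollen as well.

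All 10 genes were lower in janus-2 than in Col-0. In each of them both janus-2 libraries lay below both Col-0 libraries, an order that 46.6% of the 22990 tested genes also showed, while 44.2% showed the reverse. A gene was called where edgeR's quasi-likelihood test gave an adjusted p no greater than 0.05 and the change was 1.5-fold or more. All 10 genes were called lower, against 27.2% of all tested genes, or 42.5% where no fold threshold was set. Of the 10 genes, 8 were called and at least 8-fold lower, against 9.47% of all tested genes. The 10 genes were chosen with earlier results of these data known, so that these shares describe them and are not a test. The median log2 fold change was -6.43 over the 10 genes and -0.019 over all tested genes. The falls were far from equal, from 1.70-fold for GLR1.2 to 852-fold for ACA9. In bulk tissue, fewer pollen grains and less RNA in each grain cannot be told apart.

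The libraries held 63578320 and 58966170 counts on genes in janus-2, and 56360882 and 65578130 in Col-0. A floor of 3 counts corresponded to between 0.0457 and 0.0532 CPM (counts scaled to a common library size) before TMM scaling. Replicates differed by more than the sampling noise (chi-square of 2.51 per degree of freedom for janus-2 and 2.34 for Col-0) and were counted as separate samples. Their spread beyond that noise was small, at a common coefficient of variation of 2.26% in the edgeR fit. The very small adjusted p-values rest on such close replicates. JANUS (AT2G18510) had 1158 and 1141 counts in janus-2, against 3107 and 3579 in Col-0, and its log2 fold change was -1.53 (DESeq2 standard error 0.066). Genes of floral organ and floral meristem identity were present in both genotypes. Their summed level was 582 CPM in both janus-2 libraries, and 813 and 806 CPM in the Col-0 libraries. Of these 6 genes 2 (33.3%) were called lower, against 27.2% of all tested genes. All CPM values of genes are scaled by the trimmed mean of M values (TMM, as in edgeR), and they are not divided by gene length, so that they compare libraries and not genes.

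**Figure D1:**
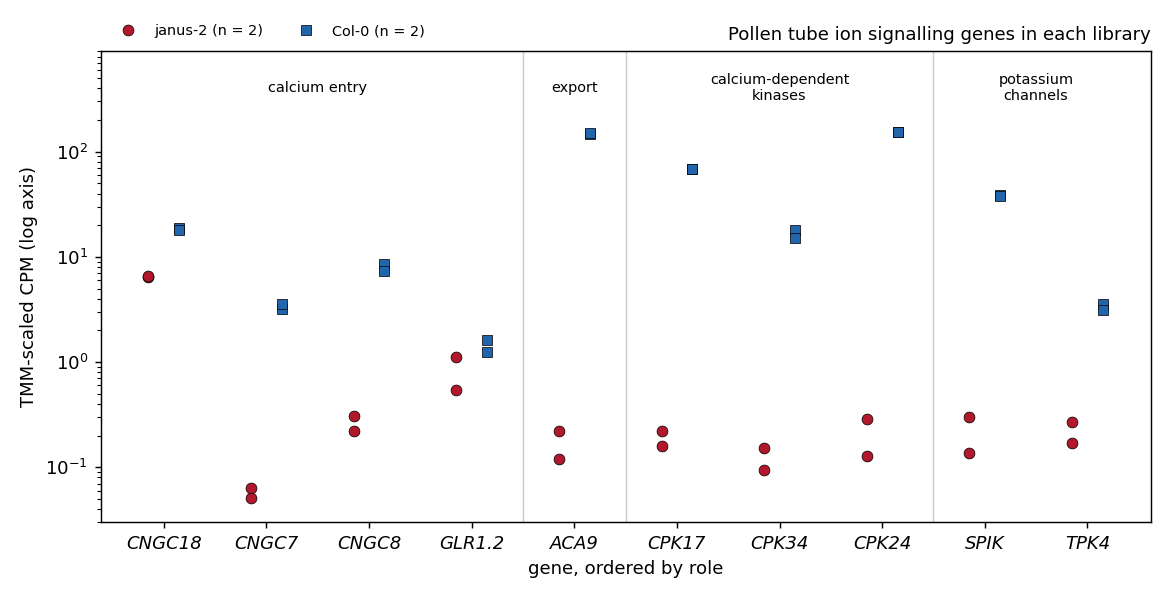
TMM-scaled CPM (log axis) of the 10 genes in each library, with janus-2 as circles on the left and Col-0 as squares on the right of each gene. In 8 of the genes the janus-2 libraries lie between 0.0511 and 0.307 CPM, whereas CNGC18 and GLR1.2 keep higher levels.

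CNGC18 encodes the calcium-permeable channel of the tube tip that pollen tube guidance and growth require. It had 6.46 and 6.63 CPM in the janus-2 libraries, against 18.6 and 18.1 CPM in the Col-0 libraries. The 2 genotypes did not overlap, and the replicates of each lay close together. The log2 fold change was -1.49 (DESeq2 standard error 0.11, edgeR adjusted p = 3.77e-72). In janus-2 35.7% of the Col-0 level thus remained (95% exact counting interval 32.9% to 38.7%). Counting intervals here cover counting error only and not the spread between libraries.

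CNGC7 and CNGC8 are the pollen partners of CNGC18, with which they form a channel that calmodulin controls. CNGC7 had 4 and 3 counts in the janus-2 libraries, against 181 and 233 counts in the Col-0 libraries. CNGC8 had 14 and 18 counts in janus-2, against 485 and 481 in Col-0. Both genes were nearly lost from the mutant inflorescences, unlike CNGC18. The log2 fold change was -5.82 for CNGC7 (standard error 0.61 by DESeq2) and -4.90 for CNGC8 (standard error 0.31). Of the Col-0 level, 1.70% remained for CNGC7 (counting interval 0.680% to 3.54%) and 3.33% for CNGC8 (2.27% to 4.74%). These intervals overlap, and neither reaches that of CNGC18. The share of CNGC8 in the counts of this pair was 77.8% and 85.7% in the janus-2 libraries, and 72.8% and 67.4% in the Col-0 libraries. With 18 and 21 counts of the pair in janus-2, the exact binomial intervals of the janus-2 shares (52.4% to 93.6% and 63.7% to 97.0%) include both Col-0 shares.

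GLR1.2 encodes a glutamate receptor-like channel that takes part in the calcium response of pollen tubes to D-serine from the pistil. It had 70 and 32 counts (1.11 and 0.545 CPM) in the janus-2 libraries, against 91 and 82 counts (1.61 and 1.24 CPM) in the Col-0 libraries. Replicate 1 of janus-2 thus lay just under the lower Col-0 library, and replicate 2 well below it. The log2 fold change was -0.76 (DESeq2 standard error 0.40, edgeR adjusted p = 0.00516). This call rested on single libraries and on the tool, and without janus-2 replicate 1 the value was -1.37. DESeq2 gave -0.78 with an adjusted p of 0.0644. Without janus-2 replicate 2 the value was -0.35 (adjusted p = 0.276 from edgeR), and without Col-0 replicate 1 it was -0.58 (adjusted p = 0.128 from edgeR). In janus-2 59.3% of the Col-0 level remained (counting interval 46.0% to 76.2%), and the 4 ratios of single libraries ranged between 33.9% and 89.2%.

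ACA9 encodes the calmodulin-stimulated calcium pump of the pollen plasma membrane, which tube growth and sperm discharge require. It had 14 and 7 counts in the janus-2 libraries, against 8293 and 9940 counts in the Col-0 libraries. In CPM these were 0.222 and 0.119 in janus-2, against 147 and 151 in Col-0. The log2 fold change was -9.74 (standard error 0.32 by DESeq2), and 0.116% of the Col-0 level remained (counting interval 0.0717% to 0.177%). Among the 10 genes this was the lowest remaining share, with an interval that overlaps that of CPK24.

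The kinases CPK17 and CPK34 act redundantly in pollen tube growth, and CPK24 restrains potassium uptake through SPIK. CPK24 had 8 and 17 counts in the janus-2 libraries, against 8708 and 10069 in the Col-0 libraries. CPK17 had 10 and 13 counts in janus-2, against 3907 and 4538 in Col-0. CPK34 had 6 and 9 counts in janus-2, against 1010 and 1000 in Col-0. All 3 kinases were therefore close to the floor in the mutant, and their groups were far apart. Their log2 fold changes were -9.53 for CPK24 (standard error 0.29 by DESeq2), -8.50 for CPK17 (0.31) and -7.04 for CPK34 (0.39). The remaining share was 0.134% for CPK24 (counting interval 0.0867% to 0.198%) and 0.274% for CPK17 (0.174% to 0.411%). For CPK34 it was 0.751% (0.419% to 1.24%), and this interval lies above that of CPK17.

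CPK17 and CPK34 are closely related, and how reads common to such copies were counted is not stated, so that their separate values are uncertain to that extent. CPK34 made up 37.5% and 40.9% of the counts of this pair in the janus-2 libraries, and 20.5% and 18.1% in the Col-0 libraries. The exact binomial intervals of the janus-2 shares were 15.2% to 64.6% and 20.7% to 63.6%, from 16 and 22 counts of the pair. Those of the Col-0 shares were 19.4% to 21.7% and 17.1% to 19.1%. The interval of janus-2 replicate 1 includes both Col-0 shares, whereas that of janus-2 replicate 2 lies just above both of them. The interval of janus-2 replicate 2 still overlaps that of Col-0 replicate 1, so that single libraries do not settle the higher share of CPK34. Over the summed counts, the interval of the remaining share of CPK34 (0.419% to 1.24%) lay above that of CPK17 (0.174% to 0.411%). Whether the balance of the pair differed between the genotypes was not tested. With 2 libraries against 2, no permutation test can reach a p of 0.05.

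SPIK encodes the Shaker channel for potassium uptake into pollen, and TPK4 a tandem-pore potassium channel of the pollen plasma membrane. SPIK had 19 and 8 counts (0.301 and 0.136 CPM) in the janus-2 libraries, against 2171 and 2510 counts (38.4 and 38.0 CPM) in the Col-0 libraries. TPK4 had 17 and 10 counts (0.269 and 0.170 CPM) in janus-2, against 202 and 204 counts (3.57 and 3.09 CPM) in Col-0. Both channels fell, and SPIK by more. Their janus-2 counts were alike, and SPIK had far more counts in Col-0. The log2 fold change was -7.42 for SPIK (standard error 0.29 by DESeq2), with 0.580% of the Col-0 level remaining (counting interval 0.382% to 0.845%). For TPK4 it was -3.90 (standard error 0.38), with 6.69% remaining (4.35% to 9.88%). For the 9 genes other than GLR1.2, the adjusted p from edgeR was at most 1.37e-43.

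In order of the remaining share, the genes were ACA9, CPK24, CPK17, SPIK, CPK34, CNGC7, CNGC8, TPK4, CNGC18 and GLR1.2. From ACA9 to TPK4 the counting interval of each gene overlaps that of the next in this order. The order of such neighbours also turned with single libraries. Without janus-2 replicate 2, the log2 fold change of CPK24 was -10.21 and that of ACA9 -9.37, and CPK34 (-7.40) lay below SPIK (-6.97). Without janus-2 replicate 1, that of SPIK was -8.10. A gap follows between TPK4 and CNGC18. The intervals of CNGC18 and GLR1.2 do not overlap, but the ratios of single libraries for GLR1.2 span those for CNGC18 (34.7% to 36.6%). The 8 genes before the gap had between 3 and 19 counts in each janus-2 library. Their counts in the Col-0 libraries ranged between 181 and 10069. Among these 8 genes, a lower remaining share thus went largely with a higher count in Col-0. The make-up of the summed counts also differed between the genotypes. CNGC18 and GLR1.2 held 83.9% and 83.2% of the counts of the 10 genes in the janus-2 libraries, and 4.39% and 4.22% in the Col-0 libraries.

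Genes that mark mature pollen were also lower. All 11 tested pollen markers of a list of 12 were called lower in janus-2, against 27.2% of all tested genes. The median of their log2 fold changes was -8.70. This list, like the others, was chosen with earlier results of these data known. The remaining marker, AT4G39110, is listed at 0 counts in all 4 libraries. The summed level of the list was 69.1 and 72.8 CPM in the janus-2 libraries, against 4798 and 4784 CPM in the Col-0 libraries. In 9 of the markers, among them the pectin methylesterase genes VGD1 and PPME1 and the receptor kinase gene ANX2, between 0.145% and 0.316% of the Col-0 level remained. TUA1, an alpha-tubulin gene of pollen, and ANX1, the paralogue of ANX2, kept 33.5% and 33.1%. The share of CPK17 lay within the range of the 9 strongly reduced markers and those of ACA9 and CPK24 just below it. SPIK, CPK34, CNGC7, CNGC8 and TPK4, which kept between 0.580% and 6.69%, all lay above that range. In each Col-0 library these genes also had fewer counts than any of the 9 markers. The share of CNGC18 was near those of TUA1 and ANX1.

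**Figure D2:**
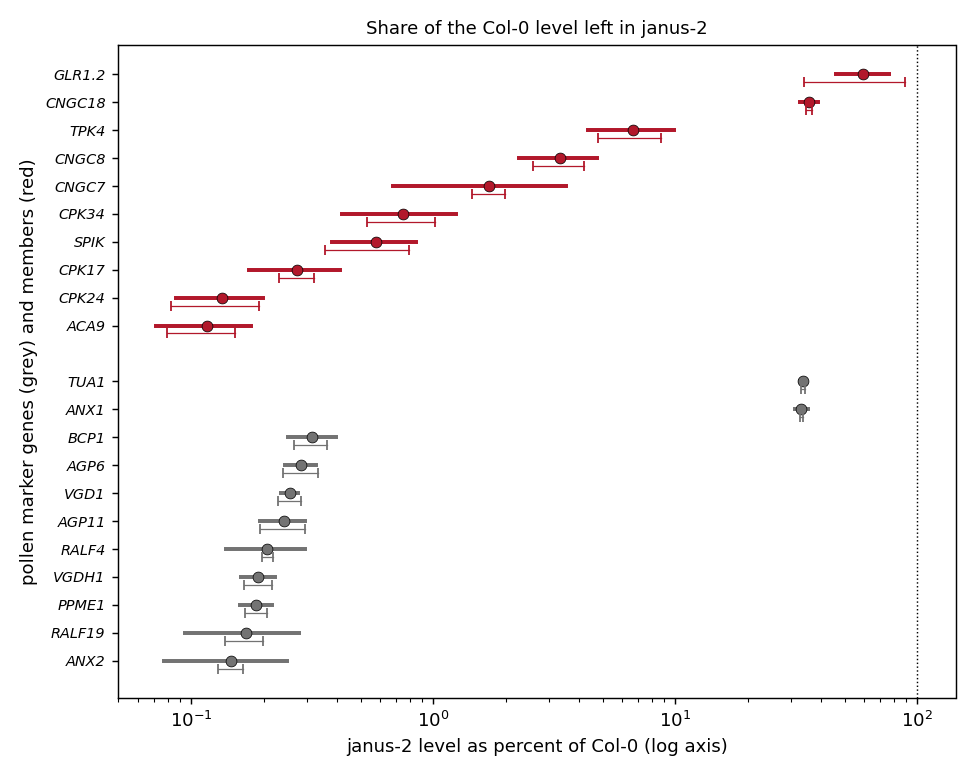
Level in janus-2 as a percent of the level in Col-0 (log axis) for the 10 genes (red, above) and 11 pollen markers (grey, below). Points are ratios of summed counts over scaled library sizes, thick bars their 95% exact counting intervals, thin bars the range over the 4 pairings of libraries, and the dotted line marks 100%; 8 of the genes and 9 of the markers lie below 10%.

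Set against the summed counts of the pollen markers, a measure free of library scaling, the 10 genes had 13.1 and 11.8 counts per 100 marker counts in the janus-2 libraries, and 9.61 and 9.58 in the Col-0 libraries. TUA1 held 3073 and 2947 of the 4364 and 4271 marker counts in janus-2, against 8312 and 9741 of 271595 and 315744 in Col-0. The sums thus rest mainly on different genes in each genotype. A choice made after the values were seen took the 8 genes other than CNGC18 and GLR1.2 and the markers other than TUA1 and ANX1. For these the ratio was 14.9 and 12.1 in janus-2, and 9.54 and 9.54 in Col-0. Both ratios were thus higher in each janus-2 library than in each Col-0 library, a difference that was not tested further. Against the markers of the tapetum, the anther layer that feeds the pollen, the order was reversed, with 16.3 and 15.8 counts of the 10 genes per 100 marker counts in janus-2, and 92.9 and 92.4 in Col-0. Of 4 sperm cell genes, the 3 tested were all called lower, against 27.2% of all tested genes. Their summed level was 0.127 and 0.102 CPM in the janus-2 libraries, against 12.4 and 12.4 CPM in the Col-0 libraries. The other gene, AT5G49150, is listed at 0 in all 4 libraries. The histone gene HTR10 (AT1G19890) had 0 counts in both janus-2 libraries, against 495 and 625 in the Col-0 libraries. All 7 tapetum markers were called lower as well, against the same 27.2% of all tested genes. Their median log2 fold change was -3.25, and their summed level was 55.3 and 54.7 CPM in janus-2, against 496 and 496 CPM in Col-0. For the falls of the 10 genes, the part of these changes in anther tissue was not tested. Of the 6 leaf photosynthesis genes edgeR called 0, as did DESeq2, since all changes were below the fold threshold. By adjusted p alone (edgeR, at most 0.00696) 2 were lower and 4 higher, with a median of 0.10 on the log2 scale. Of 6 ovule and carpel genes, 3 (50%) were called lower and 1 (16.7%) higher, against 27.2% and 18.5% of all tested genes. Their median log2 fold change was -0.57.

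The other genes of the families did not share this fall as a whole. Of 89 further genes in the 6 families, 82 were tested, and 18 (22.0%) were called lower and 29 (35.4%) higher in janus-2, against 27.2% and 18.5% of all tested genes. The same shares of all tested genes, 27.2% lower and 18.5% higher, are the background for the counts of each family below. The median log2 fold change of the 82 genes was 0.29. Among these 82 genes 9 (11.0%) were called and at least 8-fold lower, a share near the 9.47% of all tested genes.

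In the CNGC family, 10 of 17 further genes were called higher, 3 lower and 4 neither. The largest rise was that of CNGC19, which is known from calcium signalling in defence, with 13.3 and 13.8 CPM in the janus-2 libraries, against 2.21 and 2.77 CPM in the Col-0 libraries (log2 fold change 2.44, standard error 0.15 by DESeq2). The largest fall was that of CNGC16, known for heat tolerance of pollen, with 15 and 31 counts in janus-2, against 259 and 288 in Col-0. Its log2 fold change was -3.56 (standard error 0.32), between those of CNGC8 and CNGC18. In the GLR family 14 of 19 further genes were tested, and 6 were called higher, 0 lower and 8 neither. DESeq2 and limma-trend also called 0 of the 14 lower. By edgeR 3 of them were lower at an adjusted p of at most 0.05, but by less than the fold threshold. GLR2.7 rose most, with 4.07 and 4.87 CPM in janus-2, against 0.583 and 0.349 CPM in Col-0 (log2 fold change 3.28, standard error 0.30). GLR1.3, the neighbouring gene of GLR1.2 on the chromosome and its near relative, had 73 and 61 counts in janus-2, against 69 and 86 in Col-0, and was not called (log2 fold change -0.20, adjusted p = 0.462 from edgeR).

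**Figure D3:**
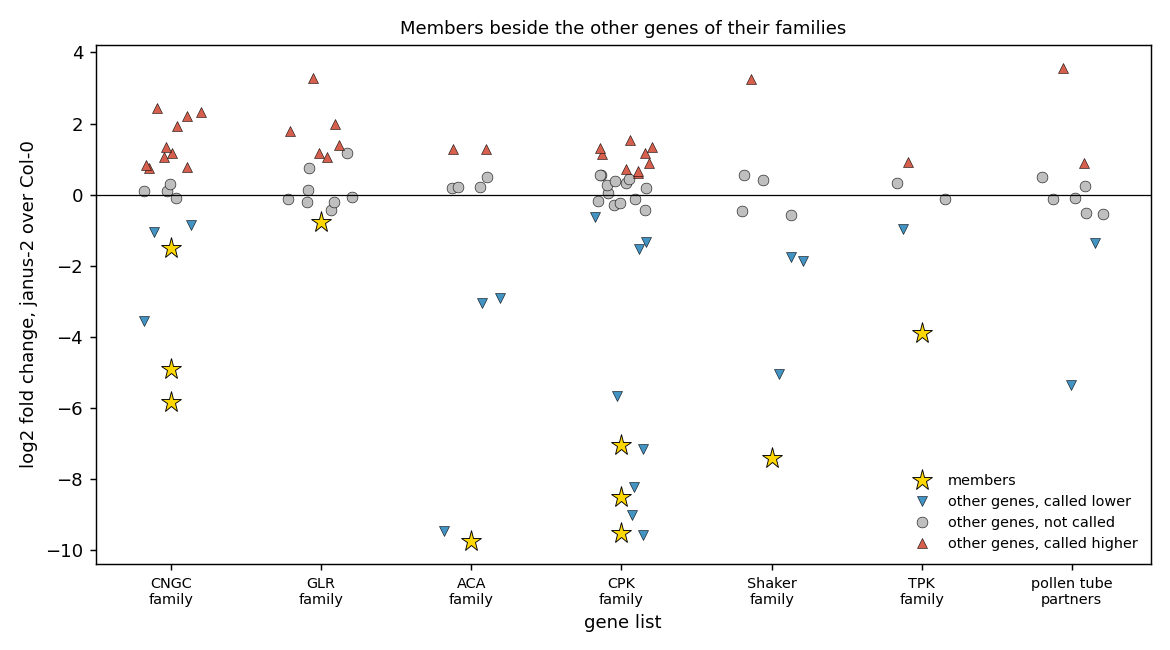
Log2 fold change (janus-2 over Col-0) of each tested gene by family and for 10 partners known from pollen tubes. Stars are the 10 pollen tube genes, downward triangles other genes called lower, upward triangles other genes called higher and circles genes not called; CPK16 (-9.56) and ACA7 (-9.47) lie lowest among the other genes, and the medians of the other CNGC and GLR genes are 0.77 and 0.90.

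In the ACA family, 3 of 9 further genes were called lower, 2 higher and 4 neither. ACA7, a calcium pump gene known from pollen development, stood beside ACA9, with 7 and 0 counts in the janus-2 libraries, against 2413 and 2758 in the Col-0 libraries. Of its Col-0 level 0.136% remained (counting interval 0.0547% to 0.281%), an interval that overlaps that of ACA9. ACA13, whose product exports calcium from stigma papilla cells, had 19.5 and 19.0 CPM in janus-2, against 146 and 146 CPM in Col-0. ACA10, a pump gene with a role in inflorescence form, rose most, with 194 and 184 CPM in janus-2, against 78.2 and 77.2 CPM in Col-0 (log2 fold change 1.29, standard error 0.038 by DESeq2).

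In the CPK family, 30 of 31 further genes were tested, and 8 were called lower, 9 higher and 13 neither. Of the 8 lower genes, 5 were at least 8-fold lower, namely CPK14, CPK16, CPK18, CPK20 and CPK25, which were singled out after their values were seen. CPK16 fell most, with 2 and 1 counts in janus-2, against 1117 and 1354 in Col-0, so that 0.122% remained (counting interval 0.0252% to 0.357%). CPK20, known to act on the anion channel SLAH3 in pollen tubes, had 0 and 2 counts in janus-2, against 347 and 332 in Col-0. CPK32, which acts on CNGC18, showed the largest rise among genes averaging 1 CPM or more, with 121 and 120 CPM in janus-2, against 48.0 and 47.3 CPM in Col-0 (log2 fold change 1.34, standard error 0.044 by DESeq2). CPK11, which acts with CPK24 on SPIK, was not called (log2 fold change -0.24, DESeq2 standard error 0.083), since the change was below the fold threshold.

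In the Shaker family, 3 of 8 further genes were called lower, 1 higher and 4 neither. AKT5, the near relative of SPIK, had 40 and 32 counts in the janus-2 libraries, against 1086 and 1309 in the Col-0 libraries (log2 fold change -5.04, standard error 0.20 by DESeq2). Its remaining share of 3.02% (counting interval 2.36% to 3.82%) lay above that of SPIK. KC1, a regulatory subunit known from roots, rose, with 6.24 and 6.10 CPM in janus-2, against 0.989 and 0.349 CPM in Col-0 (log2 fold change 3.25, standard error 0.67). In the TPK family 4 of 5 further genes were tested. TPK5 was called lower, with 7.17 and 7.17 CPM in janus-2, against 13.3 and 14.8 CPM in Col-0.

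Of 10 partners known from pollen tubes, 2 (20%) were called lower, 2 (20%) higher and 6 neither. These shares are near the 27.2% and 18.5% of all tested genes. CIPK19, a kinase that works with the calcium sensors CBL2 and CBL3, had 10 and 11 counts in the janus-2 libraries, against 424 and 452 in the Col-0 libraries (log2 fold change -5.36, standard error 0.36 by DESeq2). Its relative CIPK12 fell less, with 90.1 and 92.9 CPM in janus-2, against 236 and 233 CPM in Col-0 (log2 fold change -1.36, standard error 0.033). SLAH3 rose, with 176 and 173 CPM in janus-2, against 14.6 and 15.1 CPM in Col-0 (log2 fold change 3.56, standard error 0.051). ALMT12, another anion channel gene, had 8.44 and 8.13 CPM in janus-2, against 4.81 and 4.11 CPM in Col-0 (log2 fold change 0.90, standard error 0.16). The log2 fold changes of the 6 genes not called lay between -0.54 for CBL2 and 0.49 for CBL3, with CBL9 at -0.50, CBL1 at -0.13, CIPK14 at -0.097 and CIPK26 at 0.25.

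The falls of the 10 genes were not seen in most of the genes beside them. Of the 20 flanking protein-coding genes, 3 were called lower, 1 higher and 16 neither, with a median log2 fold change of 0.096. Among all tested genes 27.2% were called lower and 18.5% higher, so that most genes anywhere were not called lower either. By RefSeq's gene models for TAIR10.1, the spans of CNGC7, CNGC8, ACA9, CPK34 and CPK24 each overlap a neighbour. The overlapping neighbours were not called, with log2 fold changes between -0.30 for PnsB1 beside CNGC7 and 0.25 for AT5G19350 beside CPK34. These neighbours had between 2680 and 5596 counts in each library. Whether the counting used strand is not stated, so that the small janus-2 counts of these 5 genes are uncertain to that extent. TPK4 lies directly beside SAM1, which had 24614 and 23234 counts in the janus-2 libraries, against 23914 and 27008 in the Col-0 libraries. The 3 neighbours called lower were AT5G14860 beside CNGC18, AT2G25590 beside SPIK and ABCB11 beside TPK4, with log2 fold changes of -1.57, -1.40 and -1.74. AT5G14860 had 19 and 19 counts in the janus-2 libraries, against 57 and 57 in the Col-0 libraries, and its log2 fold change was close to that of CNGC18. The 1 neighbour called higher was CLT3 beside CPK17, with 4486 and 4204 counts in janus-2, against 460 and 558 in Col-0.

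**Figure D4:**
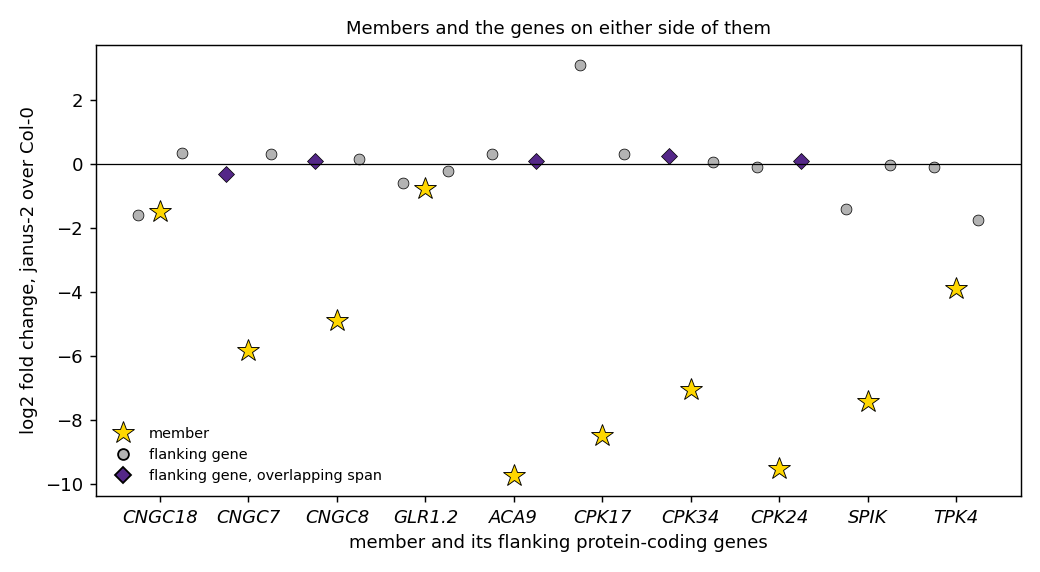
Log2 fold change (janus-2 over Col-0) of the 10 genes (stars) and of the protein-coding genes on either side of them (circles, or diamonds where the annotated spans overlap). The 5 overlapping neighbours lie between -0.30 and 0.25, and CLT3 beside CPK17 lies highest of the 20 neighbours.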

How the data were processed

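For each of the 4 mRNA libraries the table deposited by the authors gives raw read counts by gene in the layout of HTSeq. The processing notes of the submitters name Bowtie, HTSeq and TAIR10, with no versions. The annotation and the strand setting are not given in the sources used here. Ballgown, the tool the study named for differential expression, was not run. The 4 small RNA libraries were not used here, since they hold no value for these genes. Rows that name no gene (reads outside genes, between 1.11% and 1.13% of the reads in the tables, and ambiguous reads, between 2.15% and 2.34%) entered neither library sizes nor tests.

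The 22990 genes that passed filterByExpr were tested together with edgeR 4.0.16 (TMM, glmQLFit, glmQLFTest) under R 4.3.3 in 1 fit of all 4 libraries, and p-values were adjusted by the Benjamini-Hochberg method. The fit was tested on simulated counts. Standard errors are those of DESeq2 1.42.0. Counting intervals are exact binomial intervals at 95%, from scipy 1.17.1, and for ratios they are conditional on the summed counts. Alternatives changed the scaling (DESeq2's size factors, upper quartiles, library totals), the filter, the tool (DESeq2, limma-trend with limma 3.58.1), the fold threshold, the use of a replicate block and the set of libraries, leaving out 1 at a time.

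The 10 genes and all lists were chosen with earlier results of these data known. Named are all 10 genes, the partners, and in each family the further gene with the largest called fall and rise among those with a mean of at least 1 CPM. The result for 1 gene that this rule names is not reported here. A choice by level per coding length was also planned but not made, since no coding lengths were used here. ACA13, CPK20, CPK11, GLR1.3, HTR10 and the flanking genes named were added after their values were seen. Symbols and gene order come from the RefSeq annotation of TAIR10.1, which matched all 10 genes. No sequences were used here. Figures were drawn with matplotlib 3.10.9.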

Additional observations from a re-analysis of the deposited data

How the results depend on the processing

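Of the 10 genes, 10 were called lower under 8 of the 11 alternative fits and 9 under DESeq2, without janus-2 replicate 2 and without Col-0 replicate 1, the gene lost being GLR1.2 each time. Its log2 fold change was -0.78 with DESeq2 (adjusted p = 0.0644) and lay between -1.37 and -0.35 when each library was left out in turn (adjusted p from 0.000284 to 0.276 over all its alternatives). The other 9 genes were called lower in all 11, although leaving out 1 library moved the fold of CPK24 (-10.21 without janus-2 replicate 2) and of SPIK (-8.10 without janus-2 replicate 1) by more than 1.5 times. Without the fold threshold, 9778 genes were lower and 9324 higher, and of the further family genes 28 were lower and 46 higher. With sperm markers in place of pollen markers, the 10 genes had 7779 counts per 100 marker counts in janus-2 and 3704 in Col-0, which rests on 8 and 6 sperm marker counts in the janus-2 libraries. With the 8 genes and 9 markers that were nearly lost, an alternative chosen after seeing the data, the means were 13.5 in janus-2 and 9.54 in Col-0. The replicate numbers of the labels did not pair the libraries (correlation of deviations -0.014 across genes), and with the numbers as a replicate block 6180 genes were lower and 4224 higher, with all 10 genes still called lower. Depth limits the balance between paralogues in janus-2 and every remaining share that rests on fewer than 20 counts per library.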

Other observations

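Replicates of the 10 genes were also compared with each other against their scaled library sizes, in 20 two-sided exact binomial tests. In 2 of them the libraries differed beyond counting error at a Benjamini-Hochberg adjusted p of 0.05. GLR1.2 had 70 and 32 counts in the janus-2 libraries (adjusted p = 0.00696, exact binomial test). CPK34 had 1010 and 1000 counts in the Col-0 libraries, which is 17.8 and 15.2 CPM (adjusted p = 0.00528, exact binomial test). These tests compare the libraries and not the genotypes.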
